A study of Arabidopsis thaliana with 16 samples.

Results

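A set of 5 hormone-responsive genes of Arabidopsis thaliana was followed in seedlings carrying a switchable artificial microRNA directed at the TOR kinase. They were WES1 and GH3.3 for auxin, RR16 and ARR15 for cytokinin and GID1C for gibberellin, chosen by locus, and each had 1 named probe set among the 22746 probe sets of genes on the array. All 5 passed the filter on dim probe sets, which required a log2 value of at least 4 on at least 3 of the 16 arrays. ARR15 passed with exactly 3 arrays, 2 of them the empty-vector arrays of day 6, so the filter itself let it in through the arrays where it was high.

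The first set of groups comprised plants of amiR-tor lines 9, 17 and 20, each carrying an estradiol-inducible artificial microRNA in the Col-0 background, kept for 3 or 6 days on plates with 20 µM estradiol (induced) or without it (non-induced), with 1 array per line and condition. The second comprised plants with the empty inducible vector pER8, under the same 4 conditions with 1 array each. All plants were transgenic, germinated on plates with hygromycin under continuous light, and were 2 weeks old at transfer. Wild-type plants and a 0 day harvest were not analysed here. Each line number is 1 transgenic line, RNA came from seedlings, and the labels do not say how many seedlings went into an array. The series title names another gene, ORB1, some labels describe amiR-tor samples as empty vector or the reverse, and the groups rest on the sample titles. In whole seedlings, fewer cells of a type and less RNA per cell cannot be told apart.

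Auxin is kept in balance partly by GH3 enzymes, which join it to amino acids and whose genes are among the first to respond to auxin. Cytokinin signals run through a phosphorelay that switches on type-A response regulators, which in turn dampen the same relay. Gibberellin is sensed by the GID1 receptors, which bind DELLA growth repressors when the hormone is present and bring about their breakdown. TOR promotes growth when nutrients are plentiful.

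The array values were log2 expression made by the authors with GCRMA, and differences below are differences of log2 values. The leaf genes RCA, LHCB4.1 and LHCB4.2 read 13.18 to 14.68 and the root gene PYK10 read 13.08 to 13.7 on all arrays, while the other root genes EXPA18 and EXPA7 read 3.98 to 6.85. None of the 4 flower markers and no probe set for TOR was on the table of names used here, so silencing of the target was not analysed here. The control probe set for 25S ribosomal RNA lay at 5.27 to 6.66 on 6 arrays and 11.38 to 11.99 on the other 10, and actin control signal at the 5′ end differed from that at the 3′ end by -10.39 to -4.47 on those 6 arrays against -1.92 to -1.43 on the 10. These 6 low-25S arrays comprised the day 3 arrays of lines 17 and 20, with and without inducer, and the induced arrays of line 9 at either day, so an induced minus non-induced difference stayed within 1 kind of array in lines 17 and 20 and in the empty vector, but not in line 9. Within the low-25S kind, the line 17 arrays of day 3 still differed in the actin value, at -8.58 with inducer and -4.47 without it. The induced arrays of line 9 differed in it too, at -10.39 on day 3 and -6.23 on day 6.

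**Figure D1:**
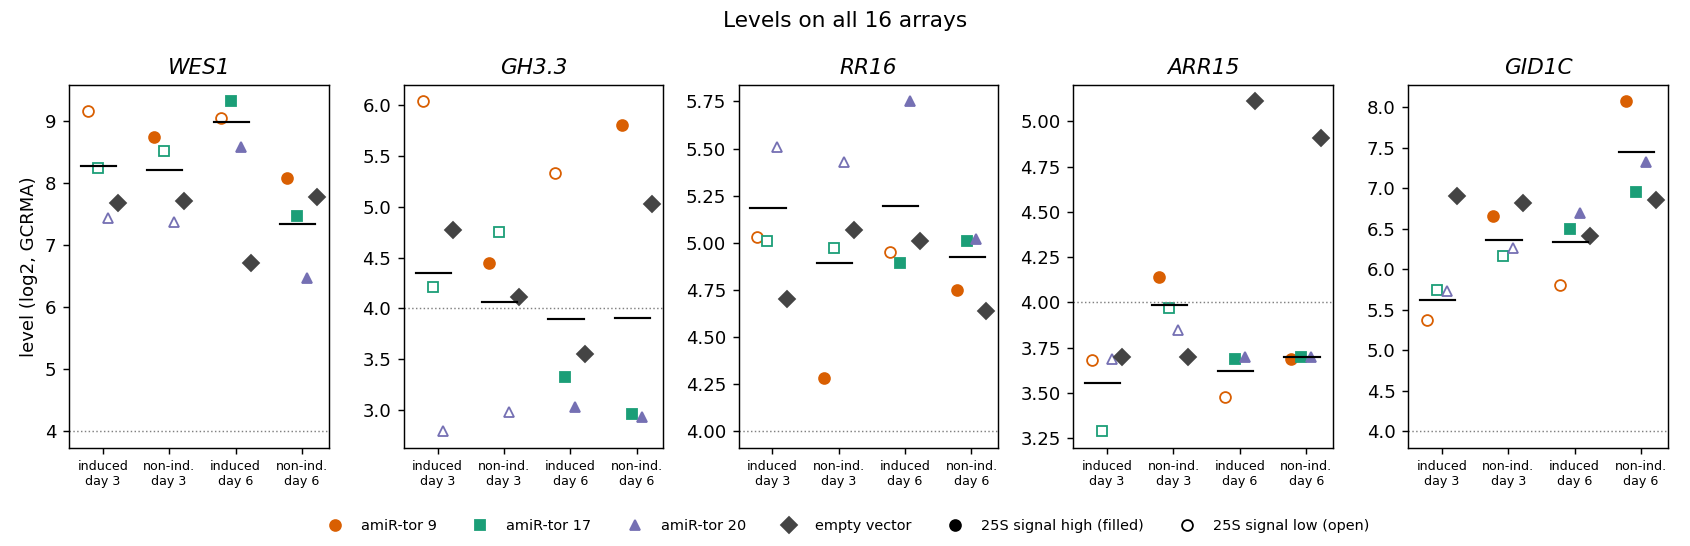
Log2 level (GCRMA, vertical axis) of each of the 5 genes on all 16 arrays, by inducer condition and day; colours and shapes give the line, open symbols are the 6 arrays with low 25S signal, short bars are means of the 3 amiR-tor lines, and the dotted line is the log2 value of 4 used in the filter. WES1 at day 6 lay at 8.58 to 9.31 in the induced lines and at 6.46 to 8.07 in the non-induced lines, and ARR15 stood at 5.11 and 4.91 in the empty vector at day 6.

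WES1 (AT4G27260), also called GH3.5, an enzyme that conjugates auxin and can also act on salicylic acid, was higher at day 6 in every induced line, with a difference that passed the test only when arrays of the same line were compared with each other. At 3 days WES1 read 9.15, 8.23 and 7.43 in induced lines 9, 17 and 20, against 8.74, 8.51 and 7.37 in the same lines without inducer. At 6 days it read 9.04, 9.31 and 8.58 in induced lines 9, 17 and 20, against 8.07, 7.46 and 6.46 without inducer. The groups overlapped at 3 days and did not overlap at 6 days, as was so for 11% of the 13701 kept probe sets in the higher direction.

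The 6 day difference of WES1 was 0.97, 1.85 and 2.12 in lines 9, 17 and 20. The differences of lines 17 and 20, each within 1 kind of array, lay above 99% and 99.8% of the kept probe sets of the same pair, and that of line 9, where the kind of array changed, above 90.1%. The group means were 8.98 ± 0.37 with inducer and 7.33 ± 0.81 without it (SD, n = 3 each), a difference of 1.65 ± 0.52 (SE; limma, Benjamini-Hochberg adjusted p = 0.204). With the line as a block the same difference had an SE of 0.24 and a limma adjusted p of 0.0307, in a fit that called 0.474% of the probe sets. The median level of WES1 over the 4 arrays of a line was 8.89 in line 9, 8.37 in line 17 and 7.4 in line 20.

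At 3 days the WES1 differences were 0.41, -0.28 and 0.06 in lines 9, 17 and 20, with a mean difference of 0.063 (95% interval -1.08 to 1.2; limma adjusted p = 0.965). Over both days WES1 was higher in 5 of 6 pairs, by 0.86 ± 0.37 (SE; limma adjusted p = 0.171). The share of all kept probe sets that were higher in as many pairs was not computed. With the line as a block WES1 passed over both days, at a limma adjusted p of 0.0381, in a fit that called 4.17% of the probe sets. Induction at 6 days minus induction at 3 days was 1.58 (95% interval -0.029 to 3.2; limma adjusted p = 1), so a difference between the days was not established.

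In the empty vector WES1 was not higher with estradiol at either day. It read 7.68 with estradiol and 7.71 without it at 3 days, and 6.71 with estradiol against 7.77 without it at 6 days. The 6 day difference of -1.06 lay below all but 0.832% of the kept probe sets of that pair, and it rests on 1 array a side. The induction difference of WES1 less its estradiol difference in the empty vector was 1.40 over both days (95% interval -0.21 to 3.01; limma adjusted p = 0.963), in a comparison that called 0.0073% of the kept probe sets. For 6 days alone, a comparison chosen after the values were seen, it was 2.71 ± 1.03 (SE; limma adjusted p = 1), and for 3 days alone, chosen likewise, 0.093 ± 1.03 (SE; limma adjusted p = 1).

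Between days, a comparison that uses the same arrays again, the day 6 minus day 3 differences of WES1 with inducer were -0.11, 1.08 and 1.15 in lines 9, 17 and 20. Without inducer they were -0.67, -1.05 and -0.91, so WES1 was lower at day 6 in all 3 non-induced lines. The share of all kept probe sets that were lower in all 3 was not computed. In the empty vector the step was -0.97 with estradiol and 0.06 without it, each from 1 array a side. The mean step of the amiR-tor lines was 0.71 with inducer (95% interval -0.43 to 1.85; limma adjusted p = 0.464) and -0.88 without it (95% interval -2.02 to 0.26; limma adjusted p = 0.741), neither past the threshold. In lines 17 and 20 these steps also went from low-25S to high-25S arrays. Over all arrays WES1 averaged 8.29 ± 0.77 on the 6 low-25S arrays and 7.85 ± 0.88 on the 10 high-25S arrays (SD).

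GH3.3 (AT2G23170), another auxin-conjugating enzyme of the same family, had its lowest levels in line 20 and its highest in line 9, and no difference with induction that passed the test. At 3 days GH3.3 read 6.04, 4.21 and 2.79 in induced lines 9, 17 and 20, against 4.45, 4.75 and 2.98 in the non-induced lines. At 6 days it read 5.33, 3.32 and 3.03 in induced lines 9, 17 and 20, against 5.81, 2.96 and 2.93 without inducer. The groups overlapped at both days, and 3 of the 6 pairs were higher and 3 lower.

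By line, the levels of GH3.3 are given as a description, because the share of kept probe sets that separate the lines likewise was not computed. The 4 arrays of line 20 lay at 2.79 to 3.03, all below the log2 value of 4, those of line 17 at 2.96 to 4.75, those of line 9 at 4.45 to 6.04 and those of the empty vector at 3.55 to 5.03. In line 20, where all levels were under the value used in the filter, the differences were -0.19 at 3 days and 0.1 at 6 days. The mean induction difference was 0.29 at 3 days (95% interval -1.9 to 2.47; limma adjusted p = 0.912) and -0.0067 at 6 days (95% interval -2.19 to 2.18; limma adjusted p = 1). At 6 days the interval of GH3.3 therefore included differences of 2 log2 units in either direction. Day 6 minus day 3, GH3.3 differed by -0.71, -0.89 and 0.24 with inducer in lines 9, 17 and 20. Without inducer it differed by 1.36, -1.79 and -0.05. The mean step was -0.45 with inducer (95% interval -2.64 to 1.73, limma adjusted p = 0.829). Without inducer the mean step was -0.16 (95% interval -2.34 to 2.02, limma adjusted p = 0.978).

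In the empty vector GH3.3 read 4.77 with estradiol against 4.11 without it at 3 days, and 3.55 with estradiol against 5.03 without it at 6 days. Its day 6 minus day 3 steps there were -1.22 with estradiol and 0.92 without it. The 6 day difference of -1.48 lay below all but 0.416% of the kept probe sets of that pair, and the 3 day difference of 0.66 lay above 98.7% of those of its own pair. WES1 and GH3.3 thus had their lowest empty-vector level on the same array, the estradiol array of day 6. Across the 16 arrays, which share lines and kinds, the levels of WES1 and GH3.3 correlated at r = 0.491, or 0.471 after centring within the kind of array, given as a description.

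**Figure D2:**
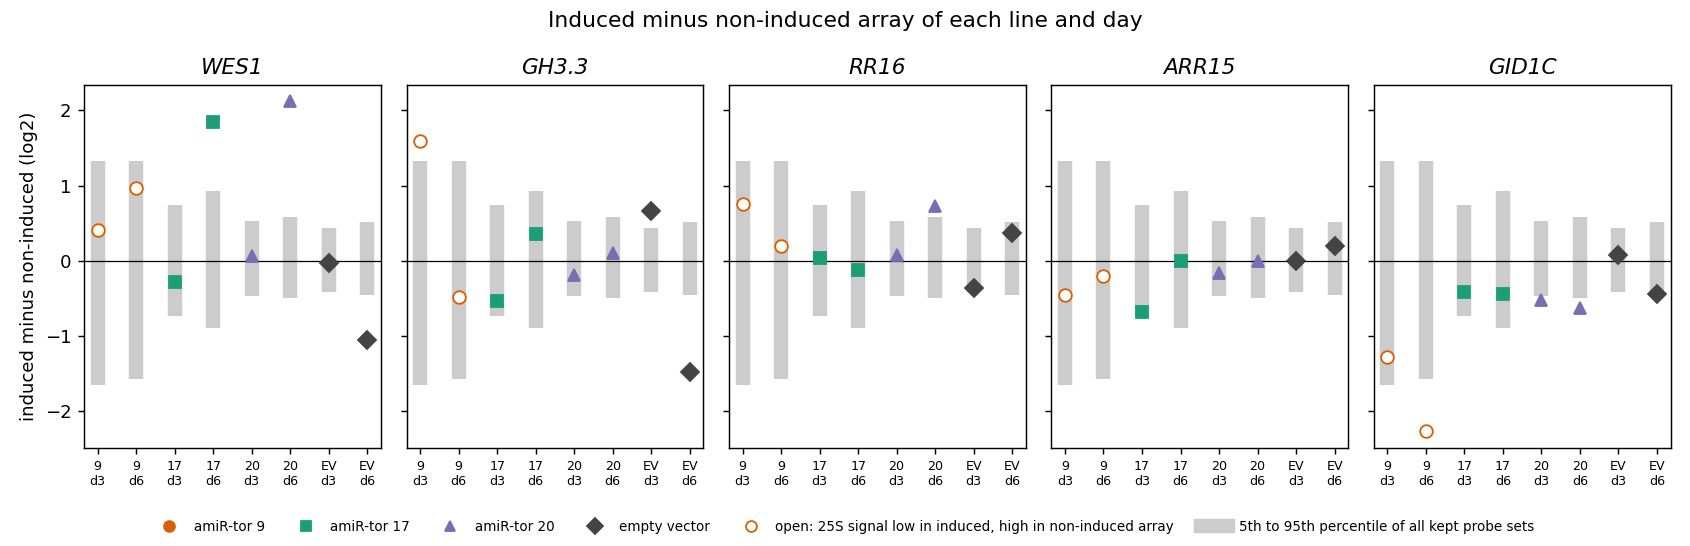
Induced minus non-induced log2 difference (vertical axis) for each line and day (d3, d6); grey bars span the 5th to 95th percentile of the 13701 kept probe sets in the same pair, and open symbols mark the pairs of line 9, where the kind of array changed. WES1 stood at 1.85 and 2.12 in lines 17 and 20 at day 6 and at -1.06 in the empty vector, and GID1C lay below 0 in all 6 amiR-tor pairs.

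RR16 (AT2G40670), also called ARR16, a type-A response regulator that dampens cytokinin signalling, had no difference between conditions that passed the test. At 3 days RR16 read 5.03, 5.01 and 5.51 in induced lines 9, 17 and 20, against 4.28, 4.97 and 5.43 without inducer. At 6 days it read 4.95, 4.89 and 5.75 in induced lines 9, 17 and 20, against 4.75, 5.01 and 5.02 without inducer. The groups overlapped at both days, although 5 of 6 pairs were higher. The share of all kept probe sets that were higher in as many pairs was not computed.

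The induction difference of RR16 over both days was 0.28 ± 0.22 (SE; 95% interval -0.2 to 0.76; limma adjusted p = 0.417), with 0.29 at 3 days and 0.27 at 6 days. Each of these rested largely on 1 line: the RR16 difference was 0.06 at 3 days without line 9 and 0.04 at 6 days without line 20. Its largest differences were 0.75 in line 9 at 3 days, where the kind of array changed, and 0.73 in line 20 at 6 days. The difference in line 20 lay above 97.1% of the kept probe sets of its pair. In the empty vector RR16 read 4.7 with estradiol against 5.07 without it at 3 days, and 5.01 with estradiol against 4.64 without it at 6 days, differences of -0.37 and 0.37. Between days RR16 differed by 0.013 with inducer (95% interval -0.66 to 0.69; limma adjusted p = 0.988) and by 0.033 without it (95% interval -0.64 to 0.71; limma adjusted p = 0.987).

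ARR15 (AT1G74890), another type-A response regulator, sat near the same low value on most arrays and was highest in the empty vector at day 6. On 9 of the 16 arrays it read between 3.68 and 3.7, a repetition within 0.02 that 2.98% of the kept probe sets showed on as many arrays, and on 13 arrays it was below 4. At 3 days ARR15 read 3.68, 3.29 and 3.69 in induced lines 9, 17 and 20, against 4.14, 3.97 and 3.85 without inducer. At 6 days it read 3.48, 3.69 and 3.7 in induced lines 9, 17 and 20, against 3.69, 3.7 and 3.7 without inducer.

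At 3 days the induced and non-induced groups of ARR15 did not overlap, as was so for 7.15% of the kept probe sets in the lower direction. The difference was -0.43 ± 0.15 (SE; limma adjusted p = 0.363), did not pass, and was measured between levels of which all but 1 lay under 4. In line 9, where the difference was -0.46, the kind of array changed. In line 17, where it was -0.68, the actin 5′ minus 3′ value also differed, at -8.58 with inducer and -4.47 without it. The part of either in the difference was not tested. At 6 days the ARR15 difference was -0.073 (95% interval -0.4 to 0.26; limma adjusted p = 0.847).

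In the empty vector ARR15 read 5.11 with estradiol and 4.91 without it at day 6, and 3.7 in both conditions at day 3. The step from day 3 to day 6 was 1.41 with estradiol and 1.21 without it, above 99.7% and 99.3% of the kept probe sets of the same pairs, and all 4 arrays were of the high-25S kind. The step, 1.31 as the mean of both conditions, is given as a description with no test, because each empty-vector condition is 1 array and ARR15 passed the filter through 2 of these arrays. In the amiR-tor lines the steps of ARR15 ran from -0.45 to 0.4.

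GID1C (AT5G27320), 1 of the 3 gibberellin receptors of Arabidopsis, was lower with inducer in all 6 amiR-tor pairs. Without the line as a block, its fall over both days was the only change with induction among the 5 genes that passed the test. That fall did not pass with the days averaged per line. At 3 days GID1C read 5.37, 5.74 and 5.73 in induced lines 9, 17 and 20, against 6.66, 6.16 and 6.26 without inducer. At 6 days it read 5.8, 6.5 and 6.69 in induced lines 9, 17 and 20, against 8.07, 6.95 and 7.32 without inducer. The groups did not overlap at either day, as was so in the lower direction for 7.15% of the kept probe sets at 3 days and 6.5% at 6 days, and 7.15% of them were lower in all 6 pairs.

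Over both days the fall of GID1C was -0.93 ± 0.22 (SE; limma adjusted p = 0.0475). That fit took the arrays of a line at 3 days and at 6 days as independent, so each line counted at both days. Of the 5 genes 1 passed over both days, where 2.85% of the kept probe sets passed and 0.628% passed as lower, 0 at 6 days, where 0.46% passed, and 0 at 3 days, where 0% passed. At an unadjusted limma p under 0.05 there were 2 at 6 days, WES1 and GID1C, beside 14.1% of the kept probe sets, and 2 at 3 days, ARR15 and GID1C, beside 13%. The 5 genes were chosen with earlier results of these data known, so these counts cannot show an excess over those shares. With the line as a block GID1C did not pass over both days, at a limma adjusted p of 0.0573, nor with the days averaged per line, at 0.234. The averaged fit, with 1 value per line and inducer condition, called 6 of the 13701 kept probe sets. At 3 days GID1C differed by -0.75 ± 0.3 (SE; limma adjusted p = 0.369) and at 6 days by -1.12 ± 0.3 (SE; limma adjusted p = 0.148).

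The size of the GID1C difference varied with the line. In line 9 it was -1.29 at 3 days and -2.27 at 6 days. In line 17 it was -0.42 and -0.45, and in line 20 -0.53 and -0.63, so line 9 averaged -1.78 and the 4 pairs within 1 kind of array averaged -0.51. In the 3 day pair of line 17 the actin 5′ minus 3′ value also differed, and its part was not tested. Those of line 17 lay above 13.2% and 16% of the kept probe sets of the same pairs, and those of line 20 above 3.69% and 2.62%. Line 9 minus lines 17 and 20, tested on the 12 amiR-tor arrays, was -1.27 ± 0.28 (SE; limma adjusted p = 0.0427). That comparison called 5.99% of the kept probe sets. The day 3 and day 6 arrays of a line were its repeats, so the p reflects spread between days within lines. With the 25S kind as a covariate the difference was -1.3 ± 0.4 (SE; limma adjusted p = 0.187). In that fit the kind varied between the days only in lines 17 and 20.

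GID1C moved with the kind of array. Its level was 5.37 to 6.26 on the 6 low-25S arrays and 6.41 to 8.07 on the 10 high-25S arrays, without overlap, as was so for 5.85% of the kept probe sets in that direction. With the 25S kind as a covariate the fall over both days was -0.72 ± 0.2 (SE; limma adjusted p = 0.148), in a fit that called 0.445% of the probe sets, and without line 9 it was -0.51 ± 0.12 (SE; limma adjusted p = 0.161). The direction was the same in these fits, and the limma adjusted p was above 0.05 in both. In the covariate fit the kind varied within a group only between line 9 and lines 17 and 20. That fit therefore could not tell the kind of array from the line. Without line 17 the value was -1.18 (limma adjusted p = 0.465) and without line 20 it was -1.11 (limma adjusted p = 0.0903).

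In the empty vector GID1C read 6.9 with estradiol against 6.82 without it at 3 days, and 6.41 with estradiol against 6.85 without it at 6 days. The 6 day difference of -0.44 was about as large as those of lines 17 and 20. Induction minus estradiol in the empty vector was -0.75 over both days (95% interval -1.7 to 0.2; limma adjusted p = 0.963), and -0.33 without line 9 (limma adjusted p = 0.982). The interval over all lines includes 0, so a fall beyond that seen with estradiol alone was not established.

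Between days GID1C was higher at day 6 in every amiR-tor line, with and without inducer. The share of all kept probe sets that were higher in every such pair was not computed. The other gibberellin receptors, GID1A and GID1B, were also higher at day 6 in every such pair, by 0.02 to 2.18 and by 0.2 to 1.13. For GID1C the step was 0.43, 0.76 and 0.96 with inducer in lines 9, 17 and 20, against 1.41, 0.79 and 1.06 without it. In the empty vector it was -0.49 with estradiol and 0.03 without it. The mean step of the lines was 0.72 ± 0.3 with inducer (SE; limma adjusted p = 0.246) and 1.09 ± 0.3 without it (SE; limma adjusted p = 0.72), and in lines 17 and 20 it coincided with the change from low-25S to high-25S arrays. Both steps of line 9 were within 1 kind of array. With inducer the actin 5′ minus 3′ value of line 9 still differed, at -10.39 on day 3 and -6.23 on day 6. Its part in the step was not tested. The comparisons behind the mean steps called 0.139% of the kept probe sets with inducer and 0% without it. Without line 9 the steps of GID1C were 0.86 with inducer (limma adjusted p = 0.0351), where 6.48% of the probe sets passed, and 0.93 without it (limma adjusted p = 0.0479), where 2.26% passed, and both then rest on pairs in which the kind of array changed. With the 25S kind as a covariate they were 0.3 with inducer (limma adjusted p = 0.805) and 0.67 without it (limma adjusted p = 1). That fit could not tell the kind of array from the line.

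**Figure D3:**
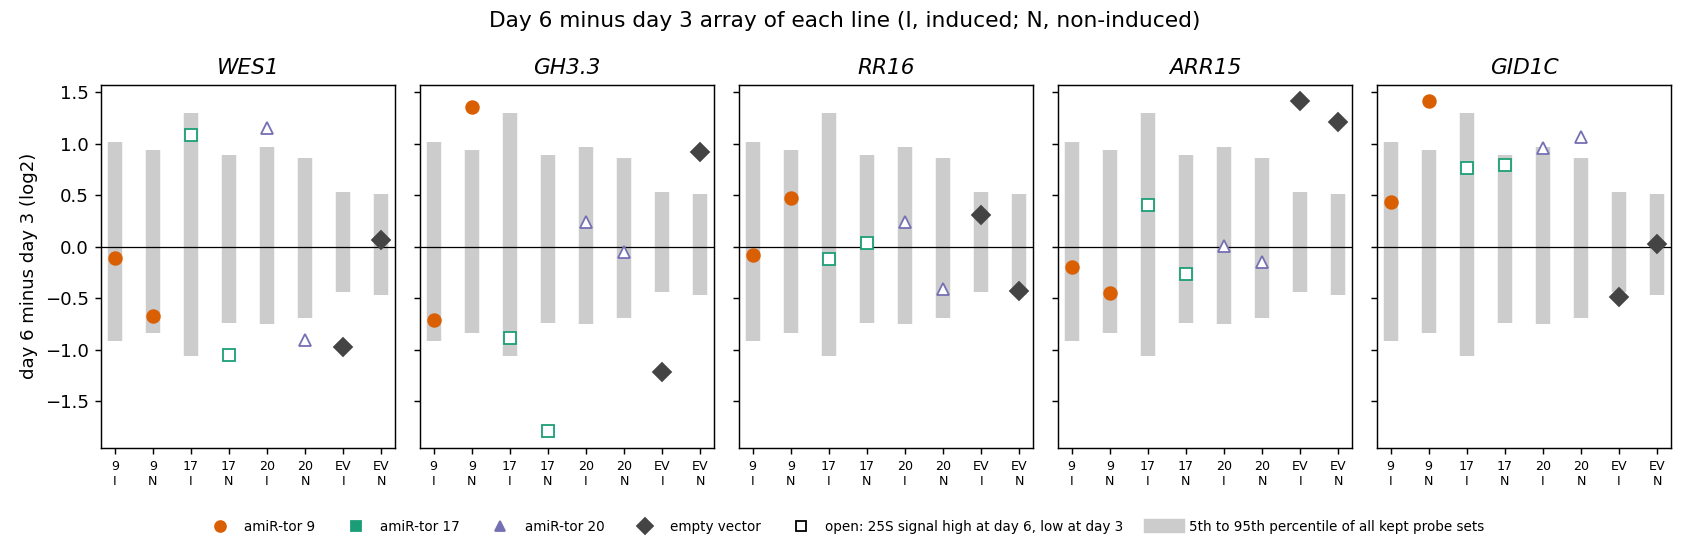
Day 6 minus day 3 log2 difference (vertical axis) for each line with inducer (I) and without it (N); grey bars span the 5th to 95th percentile of the 13701 kept probe sets in the same pair, and open symbols mark pairs that went from low to high 25S signal. ARR15 stood at 1.41 and 1.21 in the empty vector, and GID1C lay above 0 in all 6 amiR-tor pairs.

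Of the other receptors, GID1A (AT3G05120) read 6.37 to 7.51 on the 6 low-25S arrays against 8.17 to 9.15 on the 10 high-25S arrays. These did not overlap, as was so for 5.85% of the kept probe sets in that direction. The induced minus non-induced differences of GID1A were -2.63 and -2.76 in line 9 at 3 and 6 days, -1.05 and 0.06 in line 17, 0.32 and 0.19 in line 20, and 0.06 and 0.39 in the empty vector. Over both days GID1A differed by -0.98 ± 0.46 (SE; limma adjusted p = 0.2), did not pass, and was higher in 3 of the 4 pairs of lines 17 and 20.

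GID1B (AT3G63010), the third receptor, read 5.85 to 6.76 on the low-25S arrays and 6.52 to 7.21 on the high-25S arrays, which overlap. It differed by 0.12 ± 0.19 over both days (SE; limma adjusted p = 0.718). Its differences were -0.67 and -0.39 in line 9, -0.31 and 0.62 in line 17 and 0.8 and 0.64 in line 20. In lines 17 and 20 GID1C was lower in all 4 pairs, while GID1A and GID1B were each lower in 1 of them, the 3 day pair of line 17, where all 3 receptors were lower. In that pair the actin 5′ minus 3′ value also differed, and its part was not tested. SLY1 (AT4G24210), the F-box protein that targets DELLA repressors for breakdown, differed by 0.32 ± 0.15 (SE; limma adjusted p = 0.191). SPY (AT3G11540), a sugar transferase that acts as a repressor of gibberellin responses, differed by 0.27 ± 0.17 (SE; limma adjusted p = 0.345) and was higher in all 4 pairs of lines 17 and 20. The share of all kept probe sets that were lower, or higher, in 3 or in all 4 of these pairs was not computed.

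**Figure D4:**
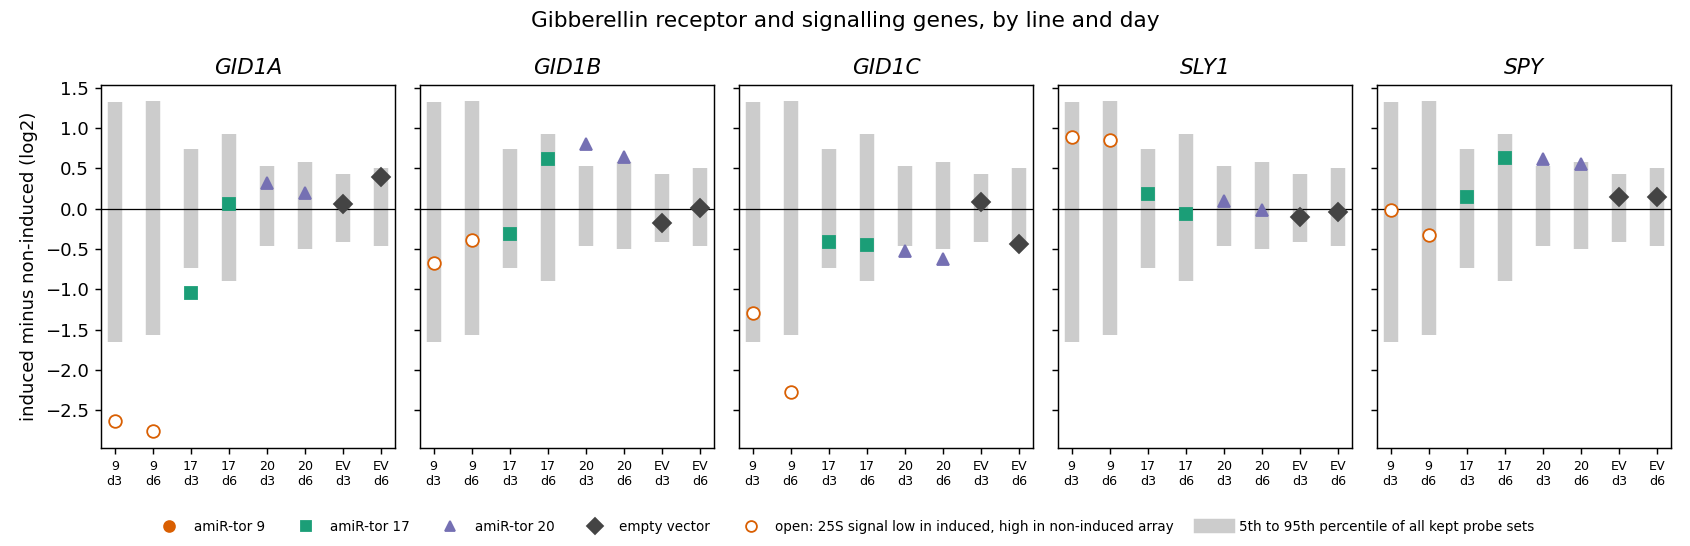
Induced minus non-induced log2 difference (vertical axis) of the gibberellin receptor genes GID1A, GID1B and GID1C and of SLY1 and SPY for each line and day; grey bars span the 5th to 95th percentile of the 13701 kept probe sets in the same pair, and open symbols mark the pairs of line 9, where the kind of array changed. GID1A stood at -2.63 and -2.76 in line 9 but between -1.05 and 0.32 in lines 17 and 20.

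Of 151 loci on lists of auxin, cytokinin and gibberellin genes, 24 had a named probe set and 13 of these were kept, among them the 5 genes above, so most of each pathway was not assessed. Over both days 1 of the 13 fell, GID1C, 0 rose and 12 did not pass, beside 0.628% of all kept probe sets that fell and 2.22% that rose; 8 had a positive value and 5 a negative one, with a median of 0.12 against 0.03 over all kept probe sets. At 3 days 0 of the 13 passed, beside 0% of the kept probe sets, and at 6 days 0, beside 0.46%. The lists too were chosen with earlier results of these data known. The 6 kept auxin genes had a median of 0.078 over both days, and the 5 kept gibberellin genes a median of 0.12.

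Among the other auxin genes, GH3.9 (AT2G47750) and GH3.17 (AT1G28130), further members of the conjugating family, differed by -0.72 ± 0.33 (SE; limma adjusted p = 0.198) and -0.35 ± 0.19 (SE; limma adjusted p = 0.251) over both days. GH3.9 read between 2.12 and 4.72, close to background, and 7 of its 16 values lay at 3.83 to 3.84. IAA18 (AT1G51950), an Aux/IAA repressor of auxin responses, differed by 0.017 ± 0.1 (SE; limma adjusted p = 0.93). YUC2 (AT4G13260), an enzyme of auxin synthesis, differed by 0.21 ± 0.22 with induction (SE; limma adjusted p = 0.555). Between day 6 and day 3 it differed by -0.82 ± 0.31 with inducer (SE; limma adjusted p = 0.213). Without inducer the step was -0.81 ± 0.31 (SE, limma adjusted p = 0.72). In the empty vector it was -0.62 with estradiol and -0.43 without it. YUC2 averaged 5.255 on the low-25S arrays and 4.386 on the high-25S arrays. No further cytokinin gene was kept: ARR18 (AT5G58080), a type-B response regulator, was on a named probe set that did not pass the filter.

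Likeness of pattern was measured as Pearson's r over the 16 arrays among 1065 other named and kept probe sets, and is given as a description because the arrays share lines and kinds. The order is that of the uncentred r, and it changed after centring within the kind of array for each gene: MGL (0.834) and CUL4 (0.826) then led for WES1, YLS5 (0.847) for GH3.3 and sks15 (0.735) for ARR15. After centring UBP26 still led for RR16, followed by CLE41 (0.716), and MED6 still led for GID1C, followed by GLDH (0.776) and GPT (0.767). The patterns most like WES1 were those of BGLU16, a beta-glucosidase (r = 0.782, or 0.775 centred within the kind of array), FRA3, an inositol polyphosphate phosphatase (0.778, or 0.771), and XTH33, a xyloglucan-modifying enzyme of the cell wall (0.759, or 0.787). Those most like GID1C were MED6, a subunit of Mediator (0.939, or 0.838 centred), ndhH, encoded in the plastid (0.907, or 0.725), and HCT, an enzyme of lignin synthesis (0.903, or 0.722). For GH3.3 they were MYBC1 (0.757), HEMA2 (0.718) and LUL2 (0.698), for RR16 UBP26 (0.824), SWEET1 (0.696) and CFM3B (0.676), and for ARR15 HHP2 (0.761), sks15 (0.732) and TY1 (0.702). GH3.3 and RR16 ran against each other (r = -0.551, or -0.654 centred), with line 20 lowest for GH3.3 at a median of 2.96 and highest for RR16 at a median of 5.47.

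**Figure D5:**
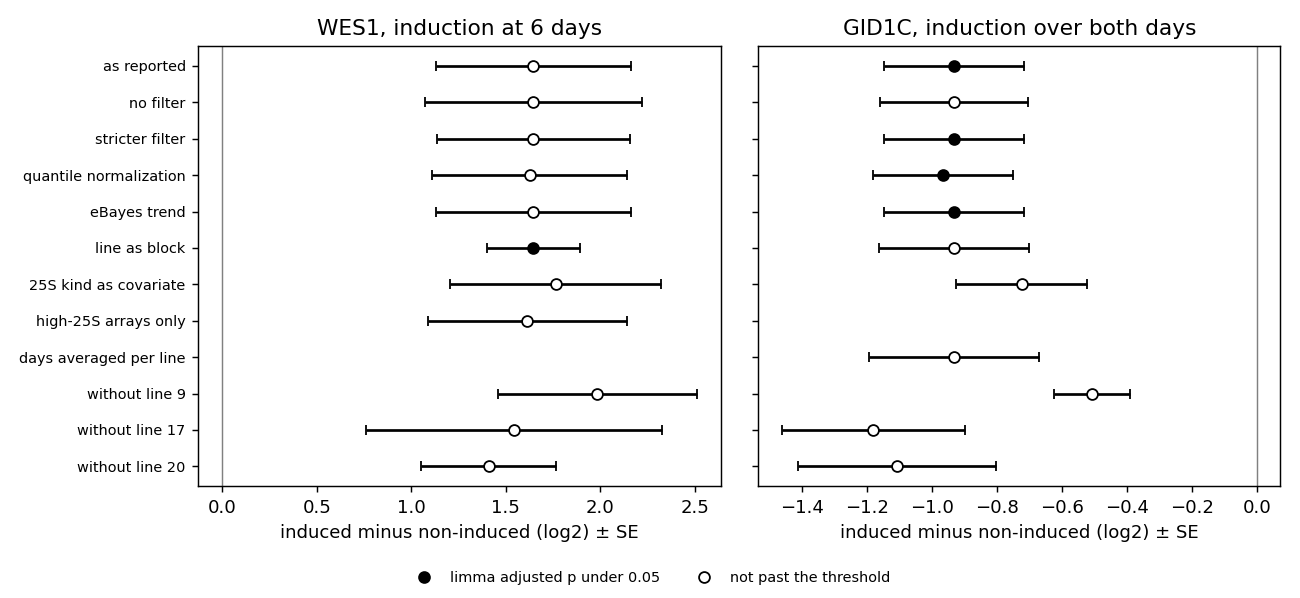
Induced minus non-induced log2 difference ± SE (horizontal axis) of WES1 at 6 days and of GID1C over both days as reported and under each alternative that gave a value; filled symbols passed a limma adjusted p under 0.05. WES1 stayed between 1.41 and 1.99 and passed with the line as a block, and GID1C stayed between -1.18 and -0.51.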

How the data were processed

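Values of 16 single-colour arrays, 1 per sample, were used as deposited. The deposited log2 values were made by the authors with GCRMA, a method for background correction, normalization across arrays and probe set summary, per the submitters' processing notes. Its version is not given in the sources used here. Precision is limited by the number of arrays, since these hold no counts. Control probe sets (64) and 9045 dim ones were left out, which left 13701. Probe sets were named through the array annotation and the RefSeq table of TAIR10.1; coordinates are left out, the array's build being unstated.

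The fit used lmFit and eBayes of limma 3.58.1 (R 4.3.3) on all 16 arrays, with a mean for each group and 8 residual degrees of freedom, Benjamini-Hochberg adjustment over all kept probe sets and a threshold of 0.05; the fit was tested on simulated data. Line 9 was compared with lines 17 and 20 in a fit of the 12 amiR-tor arrays with the day as a covariate. There the day 3 and day 6 arrays of a line were the repeats, so the p-values reflect spread between days within lines. Separate cultures are not mentioned in the labels. In the main fit p-values reflect only how far lines differ from each other, which may be technical. Its contrast over both days took the day 3 and day 6 arrays of a line as independent. Arrays are paired by line, because the labels give the same transgenic line with and without inducer. The main fit held no term for the line. Of the fits of all 16 arrays only that with the line as a block used the pairing. Deviations of the arrays of a line from their group means had correlations of -0.631 to 0.516. The closest arrays correlated at r = 0.992 with 4.48% identical values, so none looked like a copy. Named were the 5 genes, list genes past the threshold or with the smallest p, and the 3 most alike patterns per gene. The genes and lists were chosen with earlier results of these data known. Alternatives were the filter, quantile normalization, the line as a block, the 25S kind as a covariate, high-25S arrays only, each line left out, averaged days and a trend in eBayes.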

Additional observations from a re-analysis of the deposited data

Results flagged for a closer look

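The induction effect differed between lines for GID1C and SLY1 in limma's test of the difference itself. That comparison called 5.99% of all kept probe sets, and 27.9% of them at an unadjusted p under 0.05. The day 3 and day 6 arrays of a line were its repeats, with line 9 alone on 1 side. Its p-values therefore reflect spread between days within lines, not between lines. For GID1C line 9 minus lines 17 and 20 was -1.27 ± 0.28 (SE; limma adjusted p = 0.0427). For SLY1 it was 0.825 ± 0.19 (SE; limma adjusted p = 0.0466), with differences of 0.89 and 0.85 in line 9 and of -0.07 to 0.18 in lines 17 and 20. In line 9 the induced arrays had low 25S signal and the non-induced arrays high 25S signal, so line and kind of array cannot be told apart there.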

How the results depend on the processing

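With the line as a block, which uses the pairing of arrays by line, WES1 at 6 days kept 1.65 and at both days 0.86 and passed (limma adjusted p = 0.0307 and 0.0381), GID1C over both days kept -0.93 and did not pass (limma adjusted p = 0.0573), and 1 list gene, against 0, passed at 6 days. GID1C over both days also lost its call at -0.93 with no filter (limma adjusted p = 0.12) and with averaged days, and at -0.72 with the 25S covariate; leaving out 1 line gave -1.18 to -0.51. The count of list genes called over both days was 0, against 1, with no filter, averaged days or the covariate and without each line. Without line 9, 2 list genes passed between days with inducer and 1 without it, against 0 each; these included GID1C at 0.86 with inducer and 0.93 without it. With no filter the count for days in the empty vector was 1, against 0, from ARR15 at 1.31; with 1 array per condition, and a spread taken from amiR-tor arrays that repeat a low value, it says nothing about replication there. For line 9 minus lines 17 and 20 the count was 0, against 2, with no filter, with the covariate and without line 17 or 20.

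Signs turned as follows. With the 25S covariate, ARR15 was 0.00083 at 6 days and -0.078 between days with inducer, GH3.3 was -0.12 over both days and, between days, 0.07 with inducer and 0.36 without it, and for line 9 minus the others WES1 was 0.21, GH3.3 -0.33 and ARR15 0.2. Without line 9, WES1 was -0.11 and GH3.3 -0.37 at 3 days, GH3.3 was 0.23 at 6 days and -0.068 over both, GH3.3 was 0.595 and RR16 0.25 for 6 minus 3 days of induction, and RR16 was -0.19 between days without inducer. Without line 17, RR16 was 0.05 for 6 minus 3 days of induction, and between days ARR15 was -0.095 with inducer and GH3.3 0.66 without it. Without line 20, RR16 was -0.1 between days with inducer and ARR15 0.01 for the line difference. In comparisons chosen after seeing the data, induction minus estradiol in the empty vector was -0.37 for GH3.3 at 3 days and -0.1 for RR16 at 6 days. None of these turned values had passed the threshold; the causes were not tested. Over the fits that leave out 1 line, GH3.3 ran up to 0.7 at 3 days, down to -0.89 for 6 minus 3 days of induction and down to -0.92 between days without inducer, RR16 ran down to -0.355 for 6 minus 3 days of induction and up to 0.08 between days with inducer, and ARR15 ran down to -0.255 for the line difference. With a stricter filter GH3.3, RR16 and ARR15 gave no value, and each gene had 1 probe set, so no other probe set could be tried. Values near background, as for ARR15 and GH3.3 in line 20, limit what these arrays can show.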
